A study of Mus musculus with 15 samples.

Results

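Amot, Amotl1, Amotl2, Ptpn14 and Frmd6 encode proteins of cell junctions and the cell cortex that restrain the transcriptional coactivator YAP1. They were taken by symbol from the deposited gene count table, and all 5 were found among its 55471 genes and passed the filter on low counts in both experiments. The RNA came from mouse cells called MSCLCs, which the labels leave unexplained, in a series on YAP1, the Ewing sarcoma fusion EWS::FLI1 and IGF-1 in bone mesenchymal stem cells. Experiment 1 compared 4 EFPrx1MSCLC libraries (219, 221, 225 and 229 by their titles) with 3 MSC libraries (202, 234_WT and 237_WT), which the design text calls WT. Experiment 2 held 4 libraries labelled hr (uns-1-1, uns-1-2, uns-2-1 and uns-2-2), 2 labelled ha (T1 and T2) and 2 labelled EF (221-1 and 221-2). The design text calls these hr-EFPrx1, ha-EFPrx1 and EFPrx1. The titles of hr and ha libraries also carry the word Combi. The labels do not explain ha, hr, Combi, T or uns, nor what drives the fusion in these cells. Every title of experiment 2 carries the number 221, also found on 1 EFPrx1MSCLC library. No label gives an age, a treatment or a time. None states whether libraries stem from different animals or cultures, and the p-values here cover only the spread among libraries, which may be technical.

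The 3 angiomotins, AMOT, AMOTL1 and AMOTL2, are scaffold proteins of tight junctions and actin filaments. They bind the WW domains of YAP1 and of its paralog TAZ through PPxY motifs and hold them outside the nucleus. They also activate the kinases LATS1 and LATS2, which phosphorylate YAP1 and, in turn, the angiomotins. PTPN14 is a FERM domain tyrosine phosphatase that binds YAP1 through PPxY motifs, and FRMD6 (Willin) is a FERM domain protein that promotes Hippo kinase signalling. In human cells AMOTL2 and PTPN14 are themselves transcribed under YAP1 and the TEAD factors, so they are read both as restrainers and as targets.

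Library totals were 14906180 to 26833876 counts in experiment 1 and 11195371 to 16378368 in experiment 2. Some libraries were nearly repeats: the median squared difference between counts, relative to sampling noise alone, was 1.36 for the EF pair, 1.32 for uns-1-1 and uns-1-2 and 1.31 for uns-2-1 and uns-2-2. It was 12.5 to 13.6 between the uns-1 and uns-2 libraries, 16.3 for the ha pair and 6.19 to 76.1 within the groups of experiment 1. These pairs were kept as separate libraries, and what became of the calls with each pair summed is given beside them. All 12 mesenchymal markers had counts in every library. The epithelial marker Epcam was at 0 in every library except 1 of EFPrx1MSCLC. Other epithelial markers had counts: Krt19 in every library, and Cdh1 in every MSC library but in no EFPrx1MSCLC library. The macrophage marker Adgre1 was at 0 in all 8 libraries of experiment 2. The MSC libraries, by contrast, held hematopoietic transcripts, given beside the results of experiment 1. In bulk RNA, fewer cells of a type and less RNA per cell cannot be told apart.

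The genes lie apart from each other on GRCm38. Amot (ENSMUSG00000041688) is at chrX:145446425-145505181, minus strand. Amotl1 (ENSMUSG00000013076) is at chr9:14541966-14645056, minus strand, and Amotl2 (ENSMUSG00000032531) at chr9:102716672-102733418, plus strand. Ptpn14 (ENSMUSG00000026604) is at chr1:189728268-189876695 and Frmd6 (ENSMUSG00000048285) at chr12:70825514-70902234, both on the plus strand. Counts ran between 59 and 13430 per gene and library. Genes annotated across Amotl1 and Ptpn14, on either strand, reached at most 0.173 CPM (the count scaled to a common library total) in any library, and none overlaps the other 3.

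Per kb of annotated exon, Amotl2 was the most abundant of the 5 in every group mean. In EF libraries Amotl2 averaged 43.6 ± 0.99 CPM per kb, Amotl1 38.5 ± 0.308, Frmd6 20.4 ± 0.0553, Amot 10.2 ± 0.27 and Ptpn14 8.38 ± 0.0793 (SD, n = 2). No range of 1 gene overlapped that of its neighbour in this order. In ha libraries the ranges of Amotl1 (35.8 to 41.7 CPM per kb) and Frmd6 (31.8 to 41.9) overlapped. In hr libraries the range of Amotl2 (20.5 to 63.6 CPM per kb) spanned those of Frmd6 (23.1 to 26.2) and Amotl1 (20.6 to 22.1), and the range of Ptpn14 (6.13 to 13.5) spanned that of Amot (7.45 to 8.52). The last places differed between experiment 1 groups: Amot and Ptpn14 averaged 10.2 ± 4.08 and 10.1 ± 3.47 CPM per kb in EFPrx1MSCLC (SD, n = 4) and 1.34 ± 1.25 and 3.03 ± 2.62 in MSC (SD, n = 3). Their ranges overlapped within each of these groups.

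Experiment 1 asked what differed between EFPrx1MSCLC and MSC cells. Amot rose, and the other 4 genes had higher means in EFPrx1MSCLC without passing the test. The test was edgeR's quasi-likelihood test with Benjamini-Hochberg adjustment over 14596 genes and a threshold of 0.05. It called 1 of the 5 genes, against a background of 19.8% of all genes tested, and 7.70% of all genes were called higher. The median log2 change was 1.55 over the 5 genes and 0.04 over all genes.

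Amot, the founding angiomotin, stood at 130, 57.3, 94.4 and 60.1 CPM in EFPrx1MSCLC 219, 221, 225 and 229, and at 23.3, 6.21 and 4.26 CPM in MSC 202, 234_WT and 237_WT. Levels here and below are CPM scaled by TMM, a correction of library totals for composition. Every EFPrx1MSCLC library was above every MSC library. The log2 fold change was 2.92 ± 0.67 (standard error; edgeR adjusted p = 0.0234). Without MSC 234_WT it was 2.63 (edgeR adjusted p = 0.0887) and without MSC 237_WT 2.53 (edgeR adjusted p = 0.071), so the call needed both of these libraries. Without MSC 202 it was 4.04 (edgeR adjusted p = 0.00465).

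Amotl1 stood at 224, 349, 167 and 403 CPM in EFPrx1MSCLC 219, 221, 225 and 229, and at 170, 60.8 and 61.9 CPM in MSC 202, 234_WT and 237_WT. The groups overlapped only through EFPrx1MSCLC 225 and MSC 202. Its log2 change was 1.55 ± 0.50 (edgeR adjusted p = 0.0679). Amotl2 stood at 405, 310, 861 and 339 CPM in the same EFPrx1MSCLC libraries and at 349, 148 and 240 CPM in the MSC libraries, a log2 difference of 0.96 ± 0.48 (edgeR adjusted p = 0.189). EFPrx1MSCLC 225 was far above the others, and MSC 202 lay within the EFPrx1MSCLC range.

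Ptpn14 stood at 82.2, 173, 110 and 176 CPM in EFPrx1MSCLC 219, 221, 225 and 229, and at 80.7, 15.7 and 25.3 CPM in MSC 202, 234_WT and 237_WT. The groups did not overlap, but EFPrx1MSCLC 219 and MSC 202 were nearly level, and the log2 change of 1.73 ± 0.60 did not pass (edgeR adjusted p = 0.08). Groups failed to overlap for 16.1% of all genes with EFPrx1MSCLC higher and for 18.4% with it lower. Amotl1 and Ptpn14 passed by DESeq2 (adjusted p = 0.0161 and 0.021), by limma-voom (adjusted p = 0.0432 and 0.0459) and without MSC 202 (edgeR adjusted p = 0.013 and 0.00869). Frmd6 had the smallest difference, 0.45 ± 0.42 (edgeR adjusted p = 0.472), with 156, 85.2, 202 and 81.7 CPM in the EFPrx1MSCLC libraries and 137, 63.5 and 87.8 CPM in the MSC libraries.

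**Figure D1:**
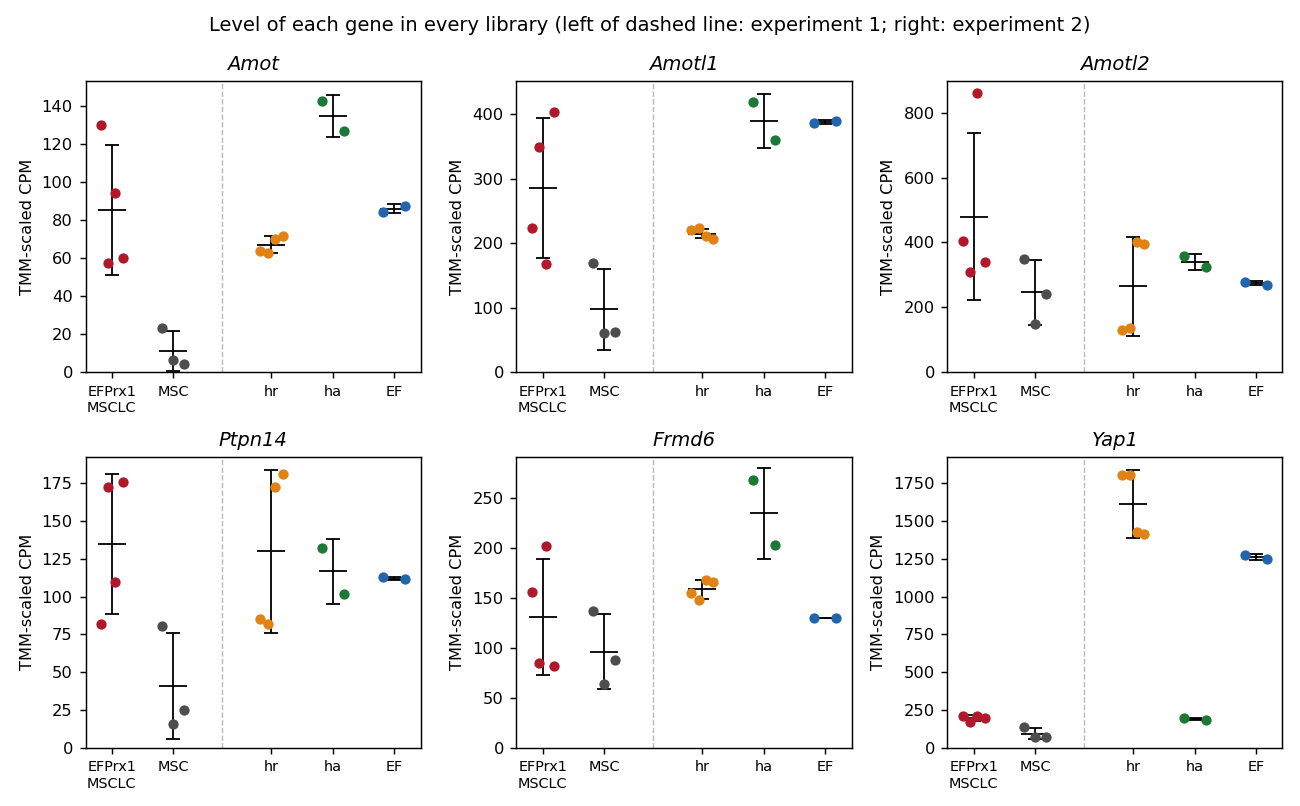
TMM-scaled CPM (vertical axes, linear, from 0) of the 5 genes and Yap1 in each library (points), with the mean and SD of each group (bars), for EFPrx1MSCLC and MSC in experiment 1 and hr, ha and EF in experiment 2. Amot in EFPrx1MSCLC lies at 57.3 to 130 CPM, above all MSC libraries, and Amotl1 in hr at 207 to 223 CPM, below all ha and EF libraries; levels are not compared across the dashed line.

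The 4 EFPrx1MSCLC libraries fell into the same pairs for each of the 5 genes, a pattern seen after the values were known. Libraries 221 and 229, the closest pair of the group, had the higher Amotl1 and Ptpn14 levels, while 219 and 225 had the higher Amot, Amotl2 and Frmd6 levels. Tead2, a TEAD factor gene, split the same way, with 1.54, 31.2, 1.92 and 30.1 CPM in EFPrx1MSCLC 219, 221, 225 and 229, and 29.9 to 31.9 CPM in MSC.

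Blood cell markers moved with this comparison. The 16 hematopoietic markers summed to 473, 54.1, 56.2 and 71 CPM of the library total in EFPrx1MSCLC 219, 221, 225 and 229, with 0 to 3 markers at 0. They summed to 10727, 30416 and 19491 CPM in MSC 202, 234_WT and 237_WT, with none at 0, and 14 of the 16 were called lower in EFPrx1MSCLC. The 6 osteoclast markers summed to 8.01 to 72.4 CPM in EFPrx1MSCLC and 380 to 2067 CPM in MSC. The 8 endothelial markers summed to 38.8, 126, 2.56 and 117 CPM in EFPrx1MSCLC 219, 221, 225 and 229 and to 6.44 to 12.5 CPM in MSC. Of these, Kdr alone averaged 63.8 ± 56.3 TMM-scaled CPM in EFPrx1MSCLC (SD, n = 4). Pecam1 and Cdh5 reached at most 0.261 and 1.27 CPM of the library total there. The 10 epithelial markers summed to 1.97 to 37.4 CPM in EFPrx1MSCLC and 17 to 38.9 CPM in MSC. The 12 mesenchymal markers summed to 4599 to 12108 CPM in EFPrx1MSCLC and 14218 to 17985 CPM in MSC. Of the 12, 1 was called higher in EFPrx1MSCLC, Prrx1, and 2 lower, Col1a1 and Pdgfrb. Among the MSC libraries, the level of every gene but Amot was lowest in 234_WT, which had the highest hematopoietic marker sum. All 5 were highest in 202, which had the lowest such sum. The part of these markers in the result was not tested. Another fit was limited to genes with at least 10 CPM in experiment 2. These genes were chosen with the low blood cell marker sums of that experiment in view. The fit called 1278 of 9421 genes, and Amot was the 1 gene of the 5 called. Its log2 change for Amot was 2.81, beside 2.92 in the main fit. Dropping genes rescales the libraries but leaves each Amot count as it was. Such a fit cannot tell what part blood cell RNA had in the Amot values.

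**Figure D2:**
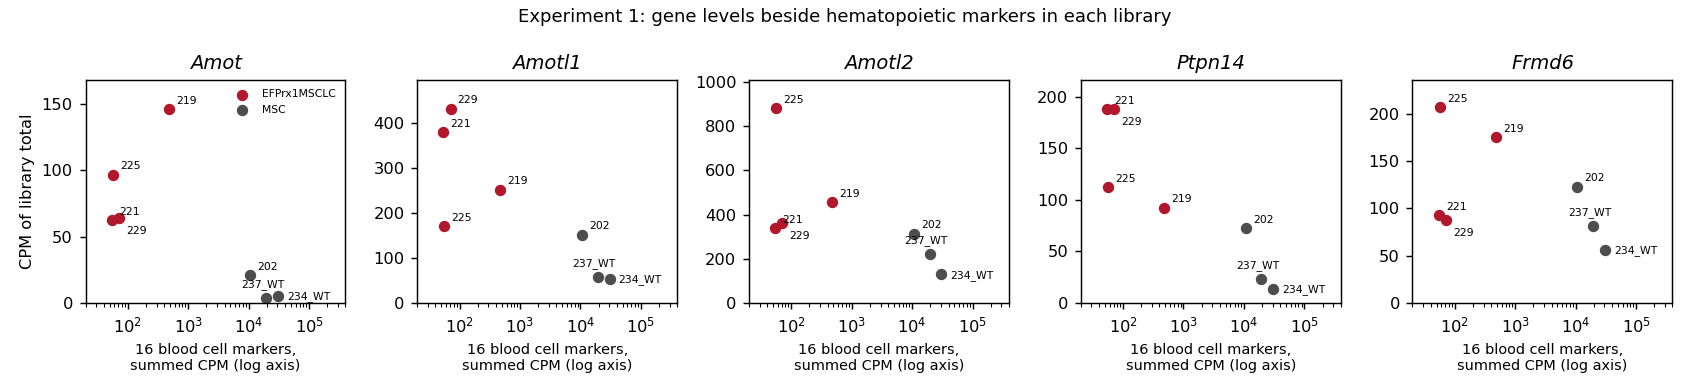
CPM of the library total of each gene (vertical axes) against the summed CPM of 16 hematopoietic markers (horizontal axes, log scale) in the 7 libraries of experiment 1. MSC libraries have marker sums of 10727 to 30416 CPM, EFPrx1MSCLC libraries of 54.1 to 473 CPM.

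The ha cells of experiment 2 were compared with EF cells while Yap1 itself was far lower in ha (191 ± 7.73 CPM in ha and 1262 ± 19.3 CPM in EF, SD, n = 2 each). Amot and Frmd6 rose, and Amotl1, Amotl2 and Ptpn14 did not pass. The count of 2 of 5 genes called, both higher, stands against 42.6% of 13998 genes called and 23.0% called higher (19.6% lower). The median log2 change was 0.32 over the 5 genes and 0.05 over all genes.

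Amot stood at 143 and 127 CPM in ha T1 and T2, against 84.5 and 87.7 CPM in EF 221-1 and 221-2. Both ha libraries were higher, by a log2 fold change of 0.65 ± 0.12 (edgeR adjusted p = 0.0038). Frmd6 stood at 268 and 203 CPM in ha T1 and T2 and at 130 CPM in both EF libraries, a rise of 0.86 ± 0.15 (edgeR adjusted p = 0.00333). Each kept its call when any 1 library was left out. Both calls were lost when each close pair was summed to 1 library, which left 1 EF library whose spread was assumed to equal that of the other groups (log2 change 0.62 and 0.83; edgeR adjusted p = 0.171 and 0.138).

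Amotl1 was level between these groups, with 420 and 361 CPM in ha T1 and T2 and 386 and 390 CPM in EF 221-1 and 221-2 (log2 difference 0.01 ± 0.12). Ptpn14 had 132 and 102 CPM in ha and 113 and 112 CPM in EF (0.06 ± 0.41). For both genes the EF values lay between the ha values. Amotl2 had 359 and 324 CPM in ha T1 and T2 and 279 and 270 CPM in EF, without overlap, as for 39.9% of all genes in this direction and 36.0% in the other. Its difference of 0.32 ± 0.57 did not pass (edgeR adjusted p = 0.684) in a fit whose estimate of spread includes the hr libraries.

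The hr cells kept a high Yap1 level (1613 ± 224 CPM in hr, n = 4, and 1262 ± 19.3 CPM in EF, n = 2, SD). Amotl1 fell, and none of the other 4 genes passed. In this comparison 6.95% of the 13998 genes were called and 3.07% were called lower (3.88% higher), beside 1 of the 5 genes. The median log2 change was -0.05 over the 5 genes and 0.01 over all genes.

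Amotl1 stood at 220, 223, 211 and 207 CPM in hr uns-1-1, uns-1-2, uns-2-1 and uns-2-2, against 386 and 390 CPM in EF 221-1 and 221-2. All 4 hr libraries lay in a narrow band below EF, and the log2 fold change was -0.85 ± 0.10 (edgeR adjusted p = 0.00772). The size of the fall was nearly the same in each alternative, from -0.89 to -0.81. The call was lost without EF 221-1 (edgeR adjusted p = 0.138), without EF 221-2 (edgeR adjusted p = 0.143) and with close pairs summed (edgeR adjusted p = 0.916). In the last fit edgeR called 0 of 15959 genes, of which 797 had an unadjusted p under 0.05. DESeq2, run on the 8 libraries without summing, called 1744 genes and Amotl1 among them.

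Amot was also below EF in every hr library, with 63.8, 62.6, 70.2 and 71.6 CPM in hr against 84.5 and 87.7 CPM in EF. Its difference of -0.36 ± 0.10 did not pass (edgeR adjusted p = 0.0682); in a fit of hr and EF alone it did (edgeR adjusted p = 0.0395). Frmd6 stood at 155, 148, 168 and 166 CPM in hr and at 130 CPM in both EF libraries, all hr above EF, a difference of 0.29 ± 0.13 (edgeR adjusted p = 0.199). Groups did not overlap for 22.9% of all genes with hr higher and for 24.1% with hr lower.

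Amotl2 and Ptpn14 separated the 2 sets of hr libraries. Amotl2 stood at 400 and 395 CPM in hr uns-2-1 and uns-2-2 and at 129 and 136 CPM in hr uns-1-1 and uns-1-2, with EF at 279 and 270 CPM between them. Ptpn14 stood at 173 and 181 CPM in the uns-2 libraries and at 85.5 and 82.2 CPM in the uns-1 libraries, again with EF (113 and 112 CPM) between them. Hence the group means of hr and EF were close, with log2 differences of -0.05 ± 0.49 for Amotl2 and 0.21 ± 0.35 for Ptpn14 (edgeR adjusted p = 0.967 and 0.751). Between the uns-2 and uns-1 libraries the log2 difference was 1.58 for Amotl2 and 1.08 for Ptpn14, while it was 0.17 for Amot, -0.09 for Amotl1 and 0.14 for Frmd6. No test is given for it, because each set is a close pair of libraries. Other YAP1/TEAD target genes, the 20 of the list described below, were set beside them: 12 were higher in the uns-2 libraries, with a median log2 difference of 0.30, beside 0.00 over all genes. For 6 of the 20 (30.0%), EF lay between the sets with uns-2 higher, as for 6.54% of all genes. Ccn1 (Cyr61), a matricellular protein gene, was at 436 to 444 CPM in the uns-2 libraries, 58.4 to 59.2 CPM in the uns-1 libraries and 265 to 269 CPM in EF. Ccn2 (Ctgf) was at 68.6 to 69.1 CPM in uns-2, 8.6 to 8.77 CPM in uns-1 and 42.4 to 44.1 CPM in EF. This comparison was added, and both genes were named, after the values were seen. Yap1 ran the other way, with 1427 and 1412 CPM in the uns-2 libraries and 1806 and 1807 CPM in the uns-1 libraries.

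Amotl2 and Ptpn14, known TEAD targets in human cells, were both higher in the uns-2 libraries. In EFPrx1MSCLC, however, they split the libraries in opposite ways. The part of TEAD factors in these differences was not tested. For both genes, the windows from 250 bases before to 50 after their RefSeq start sites (GRCm38.p6) are shown, 5′ to 3′ on the plus strand. Capitals mark the core of the TEAD recognition sequence, CATTCC, searched on both strands (GGAATG on the other).
Amotl2, chr9:102717554-102717853: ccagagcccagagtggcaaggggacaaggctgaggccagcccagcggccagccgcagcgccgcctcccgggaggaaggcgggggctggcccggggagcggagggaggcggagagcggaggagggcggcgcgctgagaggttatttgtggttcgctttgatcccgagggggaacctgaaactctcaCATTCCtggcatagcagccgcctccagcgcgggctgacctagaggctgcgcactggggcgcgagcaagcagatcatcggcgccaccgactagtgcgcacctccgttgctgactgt
Ptpn14, chr1:189728018-189728317: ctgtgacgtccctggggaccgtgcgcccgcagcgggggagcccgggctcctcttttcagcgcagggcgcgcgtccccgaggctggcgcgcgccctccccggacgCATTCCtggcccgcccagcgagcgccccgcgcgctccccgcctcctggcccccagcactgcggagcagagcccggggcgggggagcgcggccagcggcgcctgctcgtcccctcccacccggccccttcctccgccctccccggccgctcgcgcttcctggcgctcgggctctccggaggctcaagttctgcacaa
Each window held 1 match, 65 bases before the start in Amotl2 and 146 bases before it in Ptpn14. The windows of Amot, Amotl1 and Frmd6 held none. Of all 32851 windows of this length, 14.7% held the core on either strand, as did 5 of 15 windows of the YAP1/TEAD target list (33.3%), 4 of 12 of the kinases and scaffolds (33.3%), 6 of 26 of the junctional partners (23.1%) and 6 of 8 of Yap1, Wwtr1, the Tead factors and Vgll4 (75%). The share was the same in the target and kinase lists, which are small and both hold Lats2. Not every one of the 20 target genes had a window. The windows of the 5 genes also differed in base composition: GC content was 46% for Amot, 61.3% for Amotl1, 68.7% for Amotl2, 74.3% for Frmd6 and 78.3% for Ptpn14, beside a median of 52.7% over all windows. A match is a short string and not a measured binding site, and the gene counts do not tell which start site was used.

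Against ha, hr cells had lower Amot, Amotl1 and Frmd6. These are 3 of 5 genes called, all lower, beside 39.4% of genes called and 21.5% called lower (17.9% higher). The median log2 change was -0.56 over the 5 genes and 0.00 over all genes. This comparison shares its hr and ha libraries with the comparisons above.

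Amot differed by -1.01 ± 0.10 on the log2 scale (67 ± 4.54 CPM in hr, n = 4, and 135 ± 11 CPM in ha, n = 2; edgeR adjusted p = 0.000321). It kept its call in all 16 alternatives run. Amotl1 differed by -0.86 ± 0.10 (215 ± 7.59 CPM in hr and 390 ± 42 CPM in ha; edgeR adjusted p = 0.000622) and Frmd6 by -0.56 ± 0.12 (159 ± 9.53 CPM in hr and 235 ± 45.5 CPM in ha; edgeR adjusted p = 0.00978). Both lost their calls with close pairs summed (edgeR adjusted p = 0.0758 and 0.192). No hr library of these 3 genes reached the lower of the ha values; hr lay wholly below ha for 29.3% of all genes and wholly above for 26.6%. Amotl2 and Ptpn14 did not pass, with differences of -0.36 ± 0.48 and 0.15 ± 0.35.

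Markers of other cells also differed in experiment 2. The 10 epithelial markers summed to 41.7 to 44.4 CPM of the library total in hr, 2.44 to 4.83 CPM in ha and 14.2 to 15.1 CPM in EF. Krt19 was at 30.4 to 35.1 CPM in hr, 0.122 to 0.14 CPM in ha and 10 to 10.6 CPM in EF. The 8 endothelial markers summed to 7.51 to 16.5 CPM in hr, 13.4 to 19.5 CPM in ha and 18.1 to 19.5 CPM in EF, with 1 to 3 markers at 0. The 16 hematopoietic markers summed to 8.28 to 9.92 CPM in hr, 13.8 to 32.4 CPM in ha and 9.74 to 9.85 CPM in EF, with 5 to 10 at 0, and edgeR called Lyz2 and Cd14 higher in ha than in EF. The 6 osteoclast markers summed to 6.4 to 26.7 CPM in hr, 52.6 to 78.1 CPM in ha and 14.1 to 14.2 CPM in EF, with Ctsk called higher in ha than in EF. Mesenchymal markers moved as well: of 12, in ha against EF, 6 were called higher, among them Pdgfra (2.56 ± 0.61) and Pdgfrb (2.31 ± 0.46), and 2 lower, Cd44 and Vim. In hr against ha 2 were higher and 7 lower. The part of these in the results was not tested.

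**Figure D3:**
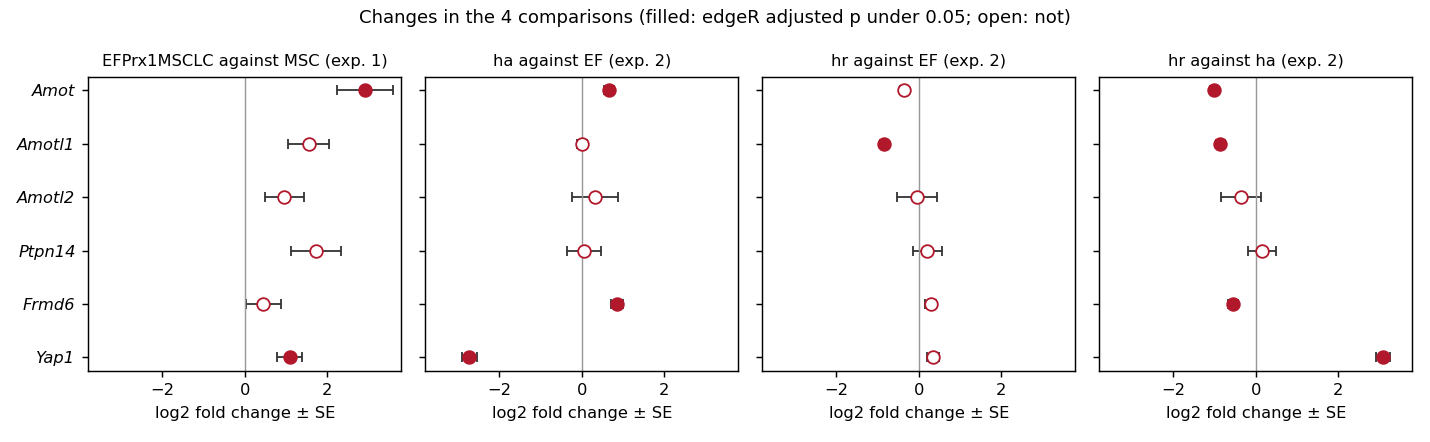
Log2 fold changes (horizontal axes; positive is higher in the group named first) with standard errors from edgeR for the 5 genes and Yap1 in the 4 comparisons; filled points have an adjusted p under 0.05. Amot is called in 3 of the 4 panels, with 2.92 in EFPrx1MSCLC against MSC, 0.65 in ha against EF and -1.01 in hr against ha.

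Because the angiomotins bind YAP1, their summed level was set beside that of Yap1 in the same library, per kb of exon and in CPM of the library total. The 3 angiomotins summed to 98.9 to 169 CPM per kb in EFPrx1MSCLC and 26.8 to 67.3 in MSC. In experiment 2 they summed to 91.6 and 90.9 in the uns-2 and 50.5 and 52 in the uns-1 libraries of hr, to 111 and 106 in ha, and to 93.3 and 91.6 in EF. In experiment 2 the sum thus varied far less than Yap1, which had 151 to 198 CPM per kb in hr, 20.3 and 20.7 in ha, and 139 and 134 in EF. In experiment 1 it did not vary less, as Yap1 had 20.2 to 25.8 CPM per kb in EFPrx1MSCLC and 6.67 to 13.1 in MSC.

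The ratio of the angiomotin sum to Yap1 was 0.256 to 0.603 in hr, 5.46 and 5.12 in ha, and 0.672 and 0.683 in EF. It was 4.45 to 7.34 in EFPrx1MSCLC and 4.02 to 5.75 in MSC. The groups of experiment 1 overlapped, while in experiment 2 hr lay below EF and ha far above both. With Wwtr1 (TAZ) added to Yap1, the ratio was 0.223 to 0.512 in hr, 1.99 and 1.84 in ha, and 0.572 and 0.579 in EF. It was then 2.32 to 3.28 in EFPrx1MSCLC and 1.62 to 2.17 in MSC, without overlap. These are transcript levels over annotated exon lengths, not amounts of protein, and are given as a description without a test.

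The composition of the angiomotin sum differed too. Amotl2 made up 53.3 to 83.1% of it in EFPrx1MSCLC and 73.9 to 85.1% in MSC, while Amot made up 6.82 to 15.2% in EFPrx1MSCLC and 1.13 to 3.7% in MSC. In experiment 2 the share of Amot was 8.99 to 15.2% in hr, 14.7 and 14.8% in ha, and 10.8 and 11.3% in EF. The share of Amotl1 was 22.5 and 22.4% in uns-2 and 43.8 and 43.2% in uns-1 libraries of hr, 36.1 and 35% in ha, and 41.3 and 42.1% in EF.

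**Figure D4:**
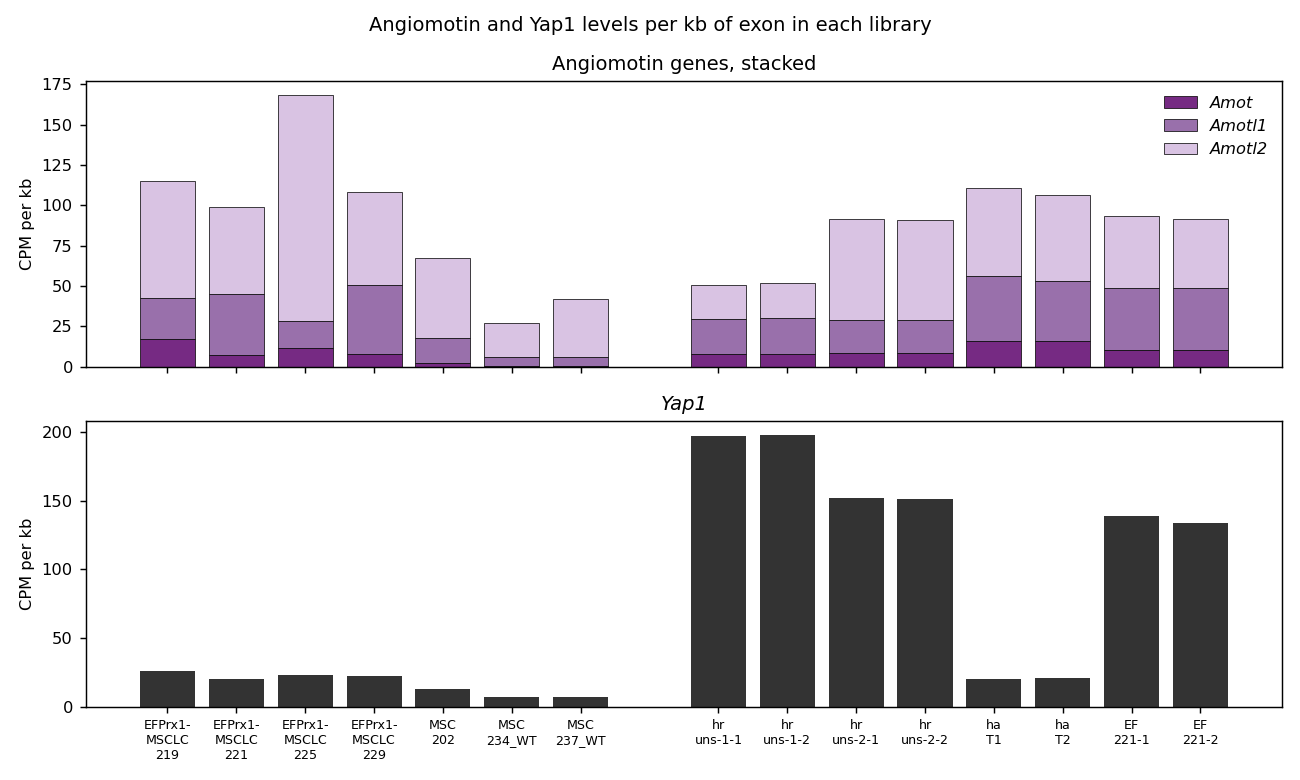
CPM of the library total per kb of annotated exon (vertical axes, linear, from 0) for Amot, Amotl1 and Amotl2 stacked (top) and for Yap1 (bottom) in each of the 15 libraries. The angiomotin stack reaches 50.5 to 111 in experiment 2, while Yap1 is at 20.3 and 20.7 in ha and at 134 to 198 in EF and hr.

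The other genes of the pathway were followed as lists, with log2 changes and standard errors from edgeR. Beside the counts for EFPrx1MSCLC against MSC stand 7.70% of all genes called higher and 12.1% called lower. In EFPrx1MSCLC against MSC, 4 of 24 partners and regulators of the junctional proteins rose and 0 fell (median log2 change 0.77, and 0.04 over all genes). They were Ajuba, whose LIM protein binds LATS kinases (97.3 ± 10.5 CPM in EFPrx1MSCLC, n = 4, and 16 ± 3.1 CPM in MSC, n = 3, SD), Magi3, a junction scaffold (2.39 ± 0.42), Lin7c, a polarity protein (0.79 ± 0.21), and Ctnna1, the alpha-catenin of adherens junctions (0.90 ± 0.26). Of its 24 tested genes, 23 had positive changes. Of 13 Hippo kinases and scaffolds 3 rose and 0 fell (median 0.59), namely Wwc1 (Kibra, 4.45 ± 0.63), Wwc2 (1.58 ± 0.44) and the kinase gene Stk3 (0.96 ± 0.21). Of the 7 genes of Yap1, Wwtr1, the Tead factors and Vgll4, 3 rose (median 1.09): Tead4 (2.84 ± 0.67), Yap1 (1.09 ± 0.30) and Vgll4, a TEAD cofactor that competes with YAP1 (1.16 ± 0.33). Wwtr1, Tead1, Tead2 and Tead3 did not pass.

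Of 20 other YAP1/TEAD target genes of a human pan-cancer signature, which also holds AMOTL2 and PTPN14, 6 rose and 2 fell in EFPrx1MSCLC (median 1.27). The growth factor gene Tgfb2 rose by 3.73 ± 0.38 and the guanine exchange factor gene Dock5 by 1.98 ± 0.37. The growth arrest gene Gadd45a and the coagulation gene F3 changed by -2.24 and -3.51 on the log2 scale, both lower. Neither Amotl2 nor Ptpn14 was among the genes of the signature that passed.

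In ha against EF, where 23.0% of all genes were called higher and 19.6% lower, 3 of 23 junctional partners rose and 5 fell (median 0.00, and 0.05 over all genes). Tjp1, which encodes a tight junction scaffold (-1.58 ± 0.14), and Arhgap17, whose GTPase activating protein binds AMOT (-0.64 ± 0.13), fell. Nedd4, a ubiquitin ligase gene whose product targets angiomotins (0.99 ± 0.19), and Magi2 (1.14 ± 0.23) rose. Of 13 Hippo kinases and scaffolds 0 rose and 4 fell (median -0.30), led by Wwc1 (-2.77 ± 0.36) and the kinase genes Stk4 (-0.67 ± 0.11) and Taok1 (-0.50 ± 0.15). Of the 7 factors, Yap1 (-2.73 ± 0.18) and Tead4 (-1.88 ± 0.43) fell, and Wwtr1 (0.59 ± 0.09) and Vgll4 (0.82 ± 0.20) rose. Of the 20 targets 7 rose and 2 fell (median 0.53), with Rbms3 (3.44 ± 0.17), Igfbp3 (4.66 ± 0.28), Ccdc80 (3.02 ± 0.18) and Tgfb2 (2.67 ± 0.33) first by p. Most of these list calls were lost with close pairs summed, a fit that left 1 EF library. Among those that stayed, the log2 change in that fit was -1.61 for Tjp1, -2.80 for Wwc1 and -2.76 for Yap1. It was 3.41 for Rbms3, 4.64 for Igfbp3, 2.99 for Ccdc80 and 2.64 for Tgfb2.

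In hr against EF, where 3.88% of all genes were called higher and 3.07% lower, few list genes passed. With close pairs summed, or without either EF library, edgeR called 0 genes in all, while 797, 1918 and 1888 had an unadjusted p under 0.05 with pairs summed, without EF 221-1 and without EF 221-2. Of 23 partners 1 rose, the ubiquitin ligase gene Nedd4l (0.86 ± 0.21), and of 13 kinases and scaffolds 1 fell, Stk4 (-0.49 ± 0.09). None of the 7 factors was called by edgeR, and 2 of them, Yap1 and Wwtr1, had an unadjusted p under 0.05. Of 20 targets 3 rose and 1 fell, among them Rbms3 (0.91 ± 0.14), Igfbp3 (3.7 ± 0.694 CPM in hr, n = 4, and 1.39 ± 0.163 CPM in EF, n = 2, SD) and Gadd45a (1.08 ± 0.25), and Arhgef17, which was lower (-0.52 ± 0.10). In hr against ha, where 17.9% of all genes were called higher and 21.5% lower, 5 of 23 partners rose and 3 fell, with Tjp1 (1.76 ± 0.13) and Magi3 (0.88 ± 0.18) higher and Nedd4 (-0.83 ± 0.16) lower. There, 4 of 13 kinases and scaffolds rose and 0 fell, 2 of 7 factors rose and 2 fell, and 2 of 20 targets rose and 7 fell. Most of the partner, kinase and factor calls in hr against ha were lost with close pairs summed, a fit that left 1 EF library. Most of the target calls stayed, all of them lower in hr. Among calls that stayed, the log2 change in that fit was 1.78 for Tjp1, 2.68 for Wwc1 and 3.10 for Yap1. Among targets it was -2.51 for Rbms3, -3.24 for Igfbp3, -2.48 for Ccdc80, -2.89 for Tgfb2 and -2.40 for F3. Fjx1, without a count in hr, also stayed.

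**Figure D5:**
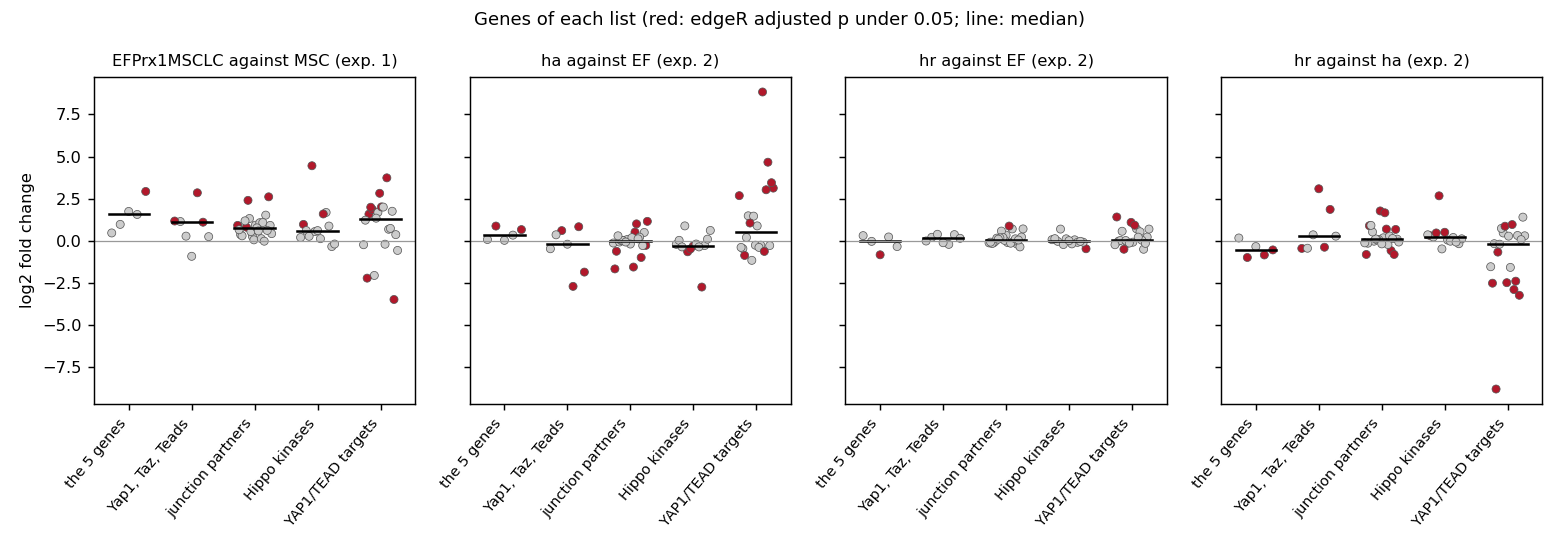
Log2 fold changes from edgeR (vertical axes; positive is higher in the group named first) of the tested genes of each list in the 4 comparisons; red points have an adjusted p under 0.05 and lines are medians. The 5 genes have medians of 1.55, 0.32, -0.05 and -0.56 from left to right; the target gene Fjx1, at the extremes of the ha panels, had no count in hr or EF, so its plotted value depends on the prior count.

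The 5 genes did not share 1 pattern. Over the 15 libraries, with each experiment centred on its own mean, Pearson's r of log2 CPM was 0.818 between Amot and Amotl1, 0.808 between Amotl1 and Ptpn14 and 0.78 between Amot and Ptpn14. It was 0.649 between Amotl2 and Ptpn14, and lowest between Amotl1 and Frmd6, at 0.228. With Yap1 it ran between -0.171 for Frmd6 and 0.35 for Ptpn14. Libraries of a group share their source and the groups form clusters, so these values only describe the pattern.

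By the same measure, among 13101 genes tested in both experiments, Amot was most like Stard13 (0.973), Trp53bp2 (0.967) and Amer1 (0.966). Amotl1 was most like the netrin receptor gene Unc5b (0.963), the microRNA processing gene Drosha (0.961) and Pafah1b2 (0.957). Amotl2 was less closely matched, by the autophagy gene Epg5 (0.878), the TEAD cofactor gene Vgll3 (0.874) and Gm43327 (0.867). Ptpn14 was most like Smcr8 (0.97), the protease gene Mbtps2 (0.966) and Btbd8 (0.963), and Frmd6 like the CREB coactivator gene Crtc2 (0.945) and Btbd7 (0.933).

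Position was described as well, since Amotl1 lies 6.54 Mb from Yap1 on chromosome 9 and Amot is X-linked. In hr against EF, the 17 tested genes within 1 Mb of Amotl1 had a median log2 change of -0.32 and 3 of them were called, beside -0.85 for Amotl1, -0.06 for the 789 other tested genes of chromosome 9 and 0.01 for all genes. In ha against EF the median of those 17 genes was -0.39, beside 0.01 for Amotl1. Yap1 changed by -2.73 in ha against EF, beside a median of 0.62 for its 14 tested neighbours within 1 Mb. These neighbours ranged from -2.36 to 10.63, and 9 of them were called. The part of position in the fall of Yap1 was not tested. For Amot, the 459 other tested X-linked genes had a median of 0.28 in ha against EF and 0.22 in hr against EF. Xist, transcribed from the inactive X, was at 125 to 445 CPM of the library total in hr, 381 to 968 CPM in ha, and 0.0794 to 0.357 CPM in EF. In experiment 1 it was at 794 to 1331 CPM in EFPrx1MSCLC and 1.94 to 507 CPM in MSC, and X-linked genes had a median of 0.27. The part of X-linked dosage in the Amot values was not tested.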

How the data were processed

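Gene expression was measured in 15 poly(A) RNA-seq libraries, per the labels' protocols. The authors deposited expected counts per gene (RSEM estimates, fractional where reads map to several genes). The submitters' processing notes name STAR, RSEM and GRCm38.p6; their annotation release and strand setting were not found in the sources used here. Estimates were rounded to whole numbers (8.27% were fractional, beyond a tolerance of 1e-09). GENCODE M21 gave symbols, positions and exon lengths on GRCm38 and matched 55230 of 55471 genes; promoter windows came from RefSeq on GRCm38.p6. Each experiment was fitted on its own, with all its groups, and no test was made across them. Low genes were removed with filterByExpr at a minimum count of 10, libraries were scaled by TMM, and edgeR 4.0.16 (R 4.3.3) gave two-sided quasi-likelihood tests with robust dispersions and Benjamini-Hochberg adjustment over all tested genes. DESeq2 1.42.0 and voom in limma 3.58.1 served as alternatives, and the edgeR fit was tested on simulated data. Depth was 11195371 to 26833876 counts per library. The 5 genes, the lists and the tests were chosen with earlier results of these data known. Besides the 5 genes, the text names Yap1, Wwtr1 and the Tead genes, up to 4 called genes of each list by p, and the 3 genes most like each member by Pearson's r of log2 CPM (prior count 2). A few genes meeting it are left out of the text. Other alternatives were scaling, filters, leaving out each library, a replicate block, fits of 2 groups alone, summed close pairs and each hr set alone.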

Additional observations from a re-analysis of the deposited data

Results flagged for a closer look

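For Amotl2 and Ptpn14, the uns-2 libraries of hr lay above both EF libraries and the uns-1 libraries below both. The log2 difference between the uns-2 and uns-1 libraries was 1.58 for Amotl2 and 1.08 for Ptpn14. The difference between the sets was not tested, because each consists of a pair of libraries that differ by little more than sampling noise.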

How the results depend on the processing

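Calls in experiment 1 varied most with the libraries and the tool. Genes called between EFPrx1MSCLC and MSC numbered 2887, against 4884 by DESeq2, 1278 among genes of at least 10 CPM in experiment 2, and 1219 to 5087 with 1 library left out; of the 5 genes, 1 was called higher, against 3 by DESeq2, 3 by limma-voom and 0 to 3 with 1 library left out. In ha against EF, 5961 genes were called, against 736 with close pairs summed and 3070 to 5481 with 1 library left out, and 2 of the 5, against 0 with close pairs summed. In hr against EF, 973 genes were called, against 0 with close pairs summed, 1744 by DESeq2, 3463 in uns-1 alone, 3362 in uns-2 alone, 1927 in a fit of the compared groups, and 0 to 379 with 1 library left out. In that comparison 1 of the 5 was called lower, against 0 with close pairs summed, 2 by DESeq2, 4 in uns-1 alone, 2 in uns-2 alone, 2 in a fit of the compared groups and 0 to 1 with 1 library left out; 2 were called higher in uns-2 alone. Where edgeR called 0 genes, 797 (close pairs summed), 1918 (without EF 221-1) and 1888 (without EF 221-2) had an unadjusted p under 0.05. In hr against ha, close pairs summed gave 1272 genes, against 5517, and 1 of the 5 lower, against 3; uns-1 alone gave 5 lower and uns-2 alone 2 higher. Of 13998 genes tested in hr against ha, 6423 were called in uns-1 alone and 7332 in uns-2 alone. Each hr set is a close pair of libraries, so calls in a set alone rest on near repeats. Directions changed for small differences: in ha against EF, Amotl1 was -0.01 without a filter, -0.01 in a fit of the compared groups, -0.02 with close pairs summed and -0.11 to 0.12 with 1 library left out, and Ptpn14 was -0.15 to 0.24. In hr against EF, Amotl2 was 0.54 in uns-2 alone and -0.32 to 0.18 with 1 library left out, and Ptpn14 was -0.42 in uns-1 alone. In hr against ha, Amotl2 was 0.22 in uns-2 alone, and Ptpn14 was -0.48 in uns-1 alone and -0.04 to 0.36 with 1 library left out. The causes were not tested. A replicate block on the shared title numbers moved the hr against EF count to 322 and changed no call of the 5 genes. Deviations of same-numbered EF and ha libraries from their group means correlated at 0.00612. The EF pair differs by little more than sampling noise, so this value cannot tell whether the numbers pair libraries. The 25 group levels moved by less than 1 SD without TMM. With 2 EF libraries that are near repeats, the spread of EF is known only as technical repeats show it.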
